A study of Rattus norvegicus with 8 samples.

Results

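The comparison was between 2 single-cell libraries of week 12 after fracture: cells from rats given zoledronate and CGRP, and cells from untreated control rats. Its members were all cell barcodes with at least 5000 unique molecular identifiers (UMIs, the tags that mark single captured transcripts) in these libraries. There were 10370 such cells in the CGRP library and 7777 in the control library, together 18147 of the 65208 that reached this number among the 69624 barcodes of the series. The series holds 8 libraries of Sprague Dawley rat fracture callus cells, with control, zoledronate, zoledronate and CGRP, and zoledronate and Mg groups at weeks 4 and 12. The control rats are labelled untreated. Rats of the other groups received zoledronate under the skin at 0.3 mg/kg each week for 12 weeks before a closed fracture of the femur on one side, which was held by a nail in the marrow canal. The labels name a stainless steel nail and a nail containing Mg without saying which group had which, and neither the dose and route of CGRP nor the number of animals per library is stated. Callus was digested for 4 h with collagenase A and the cells were kept in a dish for 24 h before sequencing, so all values are of cells after culture. The 2 libraries differed in zoledronate and in CGRP together, and these cannot be told apart in this comparison.

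Fracture callus forms around the break while a bone heals, and fibroblast-like cells, cartilage and new bone follow each other in it. CGRP (calcitonin gene-related peptide) is a neuropeptide of sensory nerves that acts through the receptor Calcrl paired with Ramp1 and raises cyclic AMP in the receiving cell. Zoledronate is a bisphosphonate that binds bone mineral and blocks farnesyl diphosphate synthase, an enzyme of the mevalonate pathway, in osteoclasts.

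With 1 library on each side there was no replicate and no test, and "higher" and "lower" refer to these libraries only. The kept cells held 147124758 UMIs in the CGRP library and 139656712 in the control library, with a median of 12742 and 17238 UMIs per cell. The cut left out 300 CGRP barcodes (2.81%) and 652 control barcodes (7.74%). The 2 libraries shared 24 barcode sequences. Over genes of at least 50 CPM (counts scaled to a library total of 1000000 UMIs), the control library of week 12 correlated with the other 7 libraries at Pearson's r of 0.935 to 0.960 on the log2 scale, and the CGRP library at 0.944 to 0.984, values that describe libraries and share genes. The pair itself stood at 0.946. The control library of week 12 had the single lowest or highest value of the 8 libraries for 197 of the 372 genes that were at least 2-fold different in the pair, and the CGRP library for 64. Being the only control library of its week, it cannot be left out.

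UMIs of each gene were summed over the cells of a library and scaled, and the log2 ratio of CPM plus 1 was taken, CGRP over control. Of 7236 genes with a mean of at least 5 CPM, 150 (2.07%) were at least 2-fold higher in the CGRP library and 222 (3.07%) at least 2-fold lower. The median log2 ratio over all these genes was -0.13 with an SD of 0.51. Lower genes made up 59.7% of the 372. Scaling by the TMM factors of edgeR moved the median ratio up by 0.13 and gave 197 higher and 154 lower genes, of which 43.9% were lower, and the factors of DESeq2 gave 196 and 160 (44.9% lower). Small ratios therefore depend on the scaling. At the edge of the 2-fold limit stood Col3a1 (1.002) just inside and Mt1 (0.996) and Ccdc80 (0.990) just outside on the higher side, with Tmpo (-1.013) and Ptgr1 (-1.014) inside and Actn1 (-0.992) and Ugcg (-0.989) outside on the lower side.

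**Figure D1:**
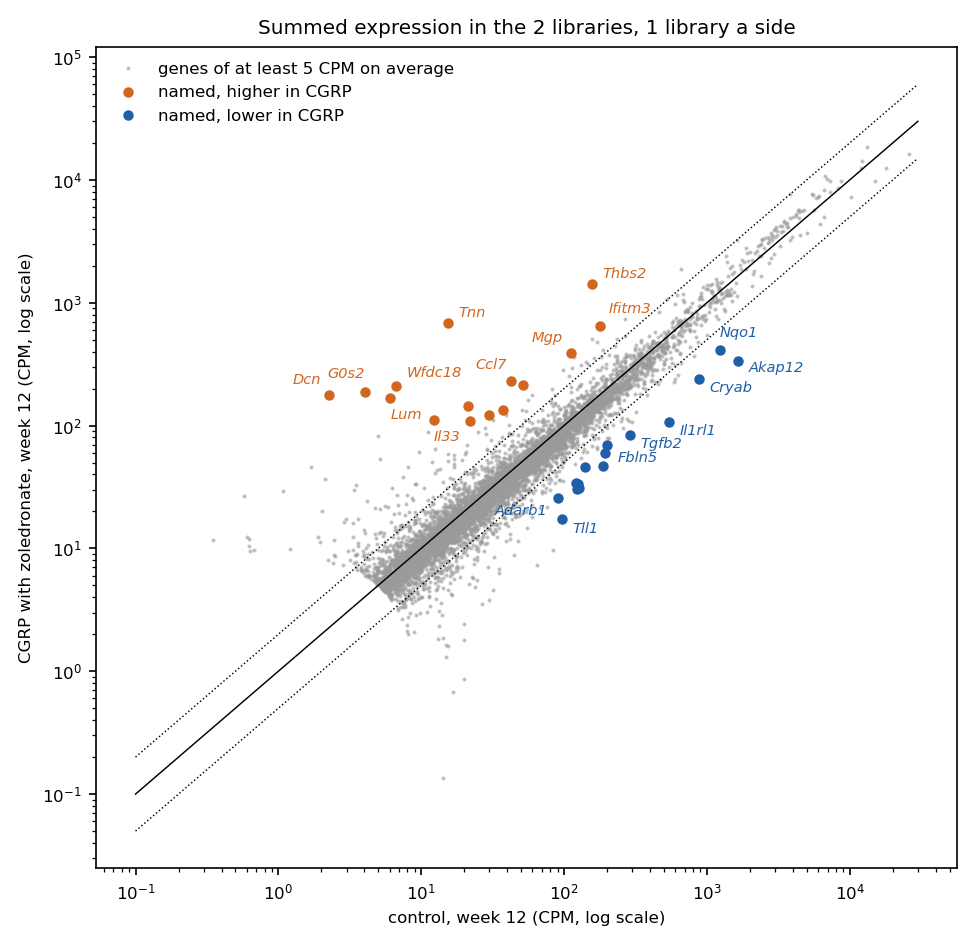
CPM of each gene in the control library (horizontal, log scale) and the CGRP library (vertical, log scale) of week 12, 1 point per gene, with the line of equality and dotted lines at 2-fold. The 15 named higher genes (orange) and 15 named lower genes (blue) lie outside the dotted lines, and 18 of them carry a label.

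Genes of fibrous matrix were among those furthest above the control level. Of 25 measured members of this list (30 in all, 27 listed), 12 were at least 2-fold higher, against 2.07% of all genes, and 1 at least 2-fold lower. The median ratio was 0.82 beside -0.13 over all genes. Decorin (Dcn), a small proteoglycan that binds collagen fibrils, had 2.28 CPM in the control library and 178 CPM in the CGRP library, from 318 and 26176 UMIs. Its log2 ratio was 5.77, with a 95% counting half-width of 0.11. In the other libraries of week 12 it had 355 CPM with zoledronate and 47.2 with zoledronate and Mg, and at week 4 it had 148 CPM in control, 134 with zoledronate, 9.31 with CGRP and 206 with Mg. The low libraries for Dcn were thus control at week 12 and CGRP at week 4. Lumican (Lum), a related proteoglycan, had 6.09 CPM in control and 167 with CGRP (log2 ratio 4.57), beside 139 with zoledronate and 11.2 with Mg at week 12. Its week 4 levels were 192 CPM in control, 168 with zoledronate, 21.7 with CGRP and 218 with Mg. Control and Mg were the low libraries of week 12 for this gene, and CGRP was the low library of week 4.

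Tenascin-N (Tnn), a matrix glycoprotein of bone and periosteum that is not in the list, had 15.4 CPM in control and 678 with CGRP, a log2 ratio of 5.37. Zoledronate and Mg at week 12 stood at 312 and 707 CPM, and the week 4 libraries at 233 in control, 337 with zoledronate, 27.3 with CGRP and 288 with Mg. Thrombospondin 2 (Thbs2), a matricellular protein that affects collagen fibril assembly and vessel growth, had 157 CPM in control against 1425 with CGRP (3.17). The control library of week 12 was the lowest of all 8 libraries for Dcn, Tnn, Lum and Thbs2, while the CGRP library ranked between the second and the fifth highest. Prelp, a proteoglycan that anchors matrix, had 3.41 CPM in control and 29.7 with CGRP (2.80). Col1a1, the main collagen chain of bone and fibrous tissue, differed less, with 13152 and 18514 CPM (0.49), and fibronectin (Fn1) not by more than 0.01. Ogn (-0.10) and Tnc (-0.01) were close to equal, and Col8a1, a short-chain collagen, was the lower member, with 379 and 177 CPM (-1.09). It was above -1 with either set of scaling factors.

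Among the 15 measured collagen processing and crosslinking genes the median was 0.01. Only the procollagen N-propeptidase Adamts2 passed 2-fold (4.72 and 13.1 CPM, 1.30), beside 2.07% of all genes higher and 3.07% lower. The crosslinking enzyme Lox was at 58.3 and 29.4 CPM (-0.97). Of 7 measured basement membrane genes, Col18a1 was higher (3.32 and 9.64 CPM, 1.30) and nidogen 2 (Nid2) was lower (125 and 33.5 CPM, -1.87), beside the same shares.

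The other genes named on the higher side were of several kinds. G0s2, an inhibitor of the lipase that frees fatty acids from stored fat, had 4.05 CPM in control and 187 with CGRP (5.21), and 42.6 with zoledronate and 572 with Mg at week 12. All 4 libraries of week 4 had between 6.06 and 14.5 CPM of G0s2. Wfdc18, a secreted protein with a whey acidic protein fold, had 6.66 CPM in control, 11.1 with zoledronate, 211 with CGRP and 2.84 with Mg at week 12, and 0.640 to 2.24 at week 4. Of the genes named, it was the one whose level in the CGRP library of week 12 stood furthest above the next library. The retinoid-inducible gene Rarres1 had 21.2 and 143 CPM (2.70), and Serpine2, an inhibitor of serine proteases, 29.8 and 123 CPM (2.01). Ifitm3, a membrane protein that blocks virus entry, had 179 and 652 CPM (1.86). Selenop, the selenium carrier, had 37.3 and 133 CPM (1.81). Matrix Gla protein (Mgp), an inhibitor of calcification, had 112 and 391 CPM (1.80), with 536 in the zoledronate library and 94.7 in the Mg library of week 12, so control and Mg were again the low libraries.

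On the lower side, the control library itself stood high. It had the highest level of the 8 libraries for 11 of the 15 genes named there, and CGRP the lowest for 3. Akap12, a scaffold that holds protein kinase A at the membrane, had 1659 CPM in control and 334 with CGRP (-2.31). Every other library had less than control at week 12, with 171 CPM with zoledronate and 179 with Mg at week 12 and 154, 159, 328 and 162 in control, zoledronate, CGRP and Mg at week 4. The 2 CGRP libraries thus stood next to each other and above the 5 remaining libraries. Il1rl1, the receptor for interleukin 33, had 541 CPM in control and 106 with CGRP (-2.34), and 61.0 to 104 in the other 6 libraries. The small heat shock protein Cryab had 882 and 238 CPM (-1.88), with 185 and 349.5 in the zoledronate and Mg libraries and 77.6 to 169.5 at week 4. Nqo1, a quinone reductase and target of NRF2, had 1226 and 415 CPM (-1.56). The library with most Nqo1 was CGRP at week 4, with 1368 CPM, and the other 5 had 349 to 577.

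**Figure D2:**
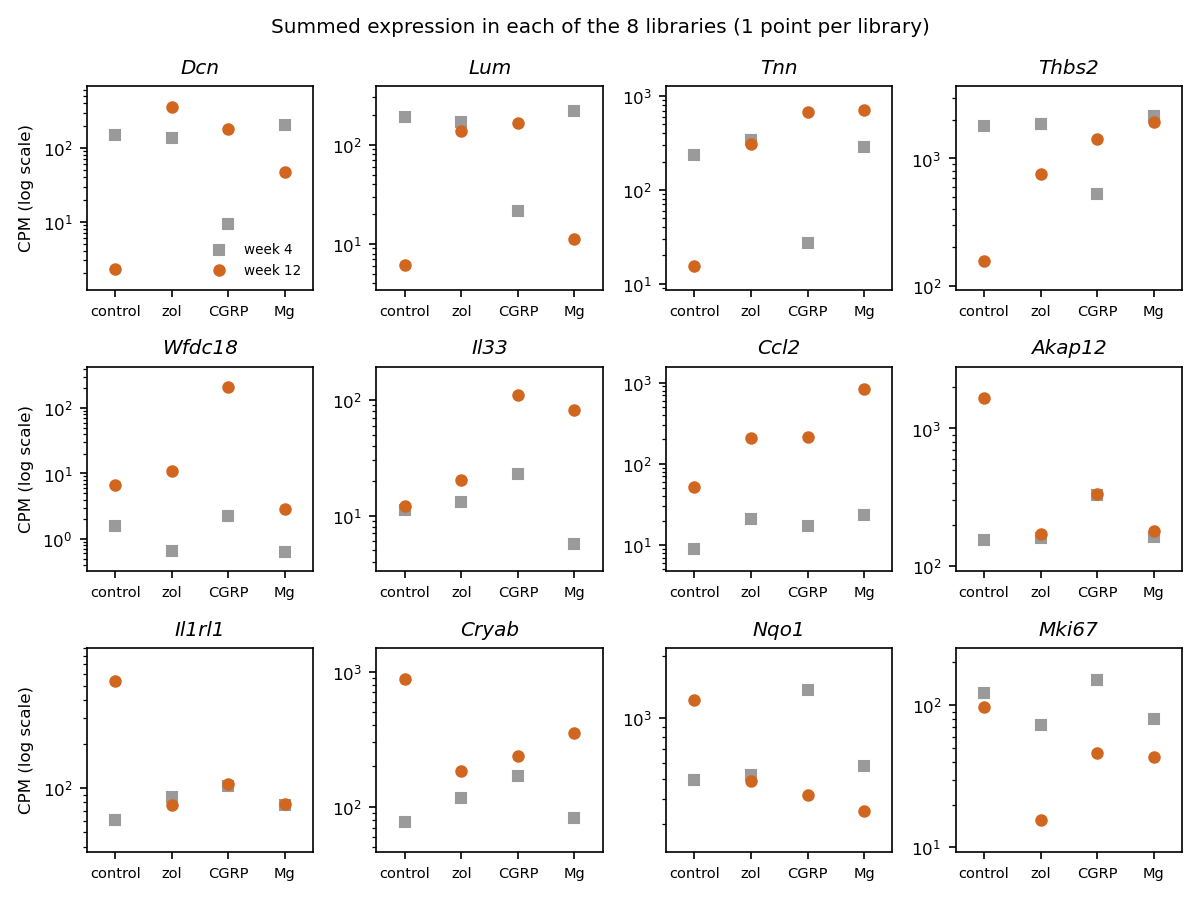
CPM (log scale) of 12 genes in each of the 8 libraries, 1 point per library, week 4 as grey squares and week 12 as orange circles (zol, zoledronate). Control at week 12 is the lowest point for Dcn, Lum, Tnn and Thbs2 and the highest for Akap12, Il1rl1 and Cryab.

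Tll1, a metalloprotease that cuts procollagen, had 96.4 CPM in control and 17.5 with CGRP (-2.40), with 19.9 to 33.6 in the other libraries. The surface glycoprotein Cd200, also a marker of skeletal stem cells, had 128 and 30.9 CPM (-2.01), and the zoledronate library of week 12 was close to control at 122. The same held for carbonic anhydrase 9 (Car9; control 124, CGRP 30.3, zoledronate 113), the palmitoyltransferase Zdhhc2 (121, 33.9 and 145), the RNA-editing enzyme Adarb1 (90.5, 25.5 and 95.6) and Anxa3 (141, 45.8 and 144). The water channel Aqp1 had 186 and 47.2 CPM (-1.96), the growth factor Tgfb2 291 and 83.3 (-1.79), and Lce1m, of the late cornified envelope family, 192 and 59.6 (-1.67). The elastic fibre protein Fbln5 had a ratio of -1.51, and CGRP had its lowest level of the 8 libraries, 69.7 CPM. The counting half-width was at most 0.11 for the higher and 0.058 for the lower named genes, and covers counting error only.

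The zoledronate and Mg libraries of week 12 were set beside the same control library, so their ratios share it. Against that control, 13 of the 15 higher genes were higher with zoledronate (9 of them at least 2-fold) and 13 with Mg (11 at least 2-fold). Of the 15 lower genes, 12 were lower with zoledronate (6 at least 2-fold) and 15 with Mg (15 at least 2-fold). The genes were picked for their ratios to this control library. It was the lowest library of week 12 for 11 of the higher genes and the highest for 12 of the lower genes. These counts were therefore largely fixed by the choice of genes, and the shares over all genes were not computed.

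Mitosis genes were lower in the CGRP library as a list. Of 23 measured members (25 in all, 24 listed), 21 were at least 2-fold lower and 0 higher, and the median ratio was -1.15. The share of all genes at least 2-fold lower was 3.07%. Promoters of 3 of these genes are shown because the whole list was lower and many of its members carry the same 2 short elements. The 3 had the lowest ratios among measured members whose promoters were found to hold both elements. Ccna2 (-1.35) and Kif20a (-1.31) had lower ratios than Plk1 and Cdk1 but were not among those members. Capitals mark the cell cycle genes homology region TTTGAA (CHR) and the CCAAT box, each read on either strand (the box reads ATTGG on the reverse strand, and the 2 motifs did not overlap). The sequences are RefSeq's for build GRCr8, plus strand, from 250 bases before to 50 after the gene start: chr16:76541864-76542163 for Ckap2, which binds spindle microtubules, chr1:186147408-186147707 for the mitotic kinase Plk1, and chr20:19265043-19265342 for Cdk1, the kinase that drives entry into mitosis.
Ckap2: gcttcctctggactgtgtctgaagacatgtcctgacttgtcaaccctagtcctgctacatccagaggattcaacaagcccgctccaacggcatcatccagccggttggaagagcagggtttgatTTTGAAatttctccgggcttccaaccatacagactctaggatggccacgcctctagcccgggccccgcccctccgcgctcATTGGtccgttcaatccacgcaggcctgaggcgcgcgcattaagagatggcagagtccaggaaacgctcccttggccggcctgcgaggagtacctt
Plk1: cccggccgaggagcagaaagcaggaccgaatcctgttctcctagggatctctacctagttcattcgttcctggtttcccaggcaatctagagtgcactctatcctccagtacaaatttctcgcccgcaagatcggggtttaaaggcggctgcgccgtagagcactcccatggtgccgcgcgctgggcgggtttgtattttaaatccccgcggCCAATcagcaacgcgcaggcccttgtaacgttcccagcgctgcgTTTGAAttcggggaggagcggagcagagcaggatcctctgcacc
Cdk1: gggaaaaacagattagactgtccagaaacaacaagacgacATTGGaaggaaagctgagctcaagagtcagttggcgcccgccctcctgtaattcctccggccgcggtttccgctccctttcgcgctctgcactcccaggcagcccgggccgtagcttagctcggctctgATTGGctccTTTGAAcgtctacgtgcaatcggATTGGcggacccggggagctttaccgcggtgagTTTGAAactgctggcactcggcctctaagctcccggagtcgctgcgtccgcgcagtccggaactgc
RefSeq promoters of this length were matched for 20 of the 25 members. The CHR letters were in 15 of them (75.0%) and in 18.3% of all 33469 promoters, and CCAAT was in 17 (85.0%) and in 37.5% of all. Both were in 13 of the 20 and in 7.41% of all promoters. These are matches of letters and not shown binding sites.

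Mki67, the common marker of dividing cells, had 96.5 CPM in control and 46.2 with CGRP (-1.05). Zoledronate had 15.5 and Mg 43.3 at week 12, and the week 4 libraries had 122 in control, 72.4 with zoledronate, 150.5 with CGRP and 80.3 with Mg. At week 12 control was the high and zoledronate the low library, and CGRP and Mg lay side by side between them. Cyclin A2 (Ccna2) had 59.4 and 22.7 CPM (-1.35), Ckap2 51.7 and 20.1 (-1.32), the mitotic kinesin Kif20a 46.3 and 18.0 (-1.31), and Plk1 12.6 and 4.58 (-1.28). Topoisomerase Top2a (-0.79) and the spindle protein Nusap1 (-0.72) were the members that did not pass 2-fold. With TMM factors 14 of the 23 passed.

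Fewer cells of the CGRP library had mitosis transcripts. After each cell was thinned to 5000 UMIs, Mki67 was detected in 24.1% of control and 10.5% of CGRP cells, and a detecting cell held 1.85 and 1.77 UMIs. Cells with at least 5 of 24 mitosis genes made up 31.4% of the control library (2445 of 7777, exact binomial 95% interval 30.4 to 32.5%) and 12.1% of the CGRP library (1256 of 10370, 11.5 to 12.8%). This cut is a range and not a cell type, and 224 control and 124 CGRP cells had exactly 5 of the genes. With at least 10 genes the shares were 17.2% and 6.64%. The other libraries had 4.29% with zoledronate and 12.6% with Mg at week 12, and 25.3% in control, 16.1% with zoledronate, 39.7% with CGRP and 17.8% with Mg at week 4. CGRP therefore had the highest share at week 4 and a share below control at week 12. When these cells were left out, an alternative chosen after seeing the data, 6 mitosis genes were still at least 2-fold lower and 189 genes in all, compared with 222.

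S-phase genes were also lower, all 18 measured members having ratios below 0, beside 4909 of all 7236 genes. Of the 18, 5 were at least 2-fold lower, where 3.07% of all genes were that much lower, and the median was -0.82. With TMM factors 2 of the 18 passed and with DESeq2 factors 3. The ribonucleotide reductase subunit Rrm2 had 200.3 and 78.6 CPM (-1.34), thymidylate synthase (Tyms) 14.3 and 5.77 (-1.18), and the primase Prim1 62.5 and 45.1 (-0.46). Of 20 measured G1 cyclins, CDK inhibitors and p53 targets, 5 were at least 2-fold lower (3.07% of all genes) and the median was -0.66, and 3 passed with TMM factors. Cyclin D1 (Ccnd1) had 258 CPM in control and 95.9 with CGRP (-1.42), and at week 4 it had 99.1 and 223 CPM, in the opposite order. The p53 target Ccng1 had 319 and 128 (-1.31), while Gadd45a, a stress-induced inhibitor of the cycle, had 80.7 and 154 (0.92).

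Few cartilage genes reached 5 CPM. Of 23 members, 14 were listed and 7 measured, 2 of them higher (2.07% of all genes) and 1 lower (3.07%). Cilp, a glycoprotein of cartilage and tendon, had 22.0 and 109 CPM (2.25), and Comp, which binds collagen fibrils, 3.31 and 12.4 (1.63). Hapln1, which links aggrecan to hyaluronan, had 8.98 and 3.72 CPM (-1.08), and was above -1 with TMM factors. The transcription factor Sox9 had 78.0 and 82.7 CPM (0.08). Col2a1, the main cartilage collagen, was listed in neither library.

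Of 19 bone genes, 14 were listed and 5 measured. Runx2, the transcription factor that sets the osteoblast fate, had 17.4 and 21.0 CPM (0.26), and the mineralising phosphatase Alpl 4.32 and 8.14 (0.78). The pyrophosphate-generating enzyme Enpp1 had 145 and 61.5 CPM (-1.23) and the transcription factor Dlx5 25.1 and 9.52 (-1.31). Sp7, a later osteoblast factor, was listed in neither library.

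Of 14 measured skeletal progenitor genes, 2 were at least 2-fold higher (2.07% of all genes) and 3 lower (3.07%), with a median of 0.06. Endoglin (Eng), a TGF beta co-receptor, had 6.80 and 27.0 CPM (1.85), and the BMP antagonist Grem1 187 and 412 (1.14), with 1137 CPM in the Mg library. Beside Cd200, the lower members were nestin (Nes, 9.22 and 2.86 CPM) and Mcam (11.0 and 4.79). With TMM factors 3 were higher and 2 lower, and Mcam was not past 2-fold.

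Contractile genes had a median of -0.27 over 17 measured members. Smooth muscle actin (Acta2) had 2802 and 2319 CPM (-0.27), and vinculin (Vcl), which ties actin to integrins, 661 and 325 (-1.02). Of the 17, 2 were at least 2-fold lower (3.07% of all genes), and 0 with TMM factors. Mylk, the kinase of myosin light chain, went the other way, with 12.5 and 64.4 CPM (2.28), and Mg had 120.5. Among 12 integrin and adhesion genes, Emb had 55.8 and 161 CPM (1.52) and Cdh13 13.3 and 3.12 (-1.80).

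**Figure D3:**
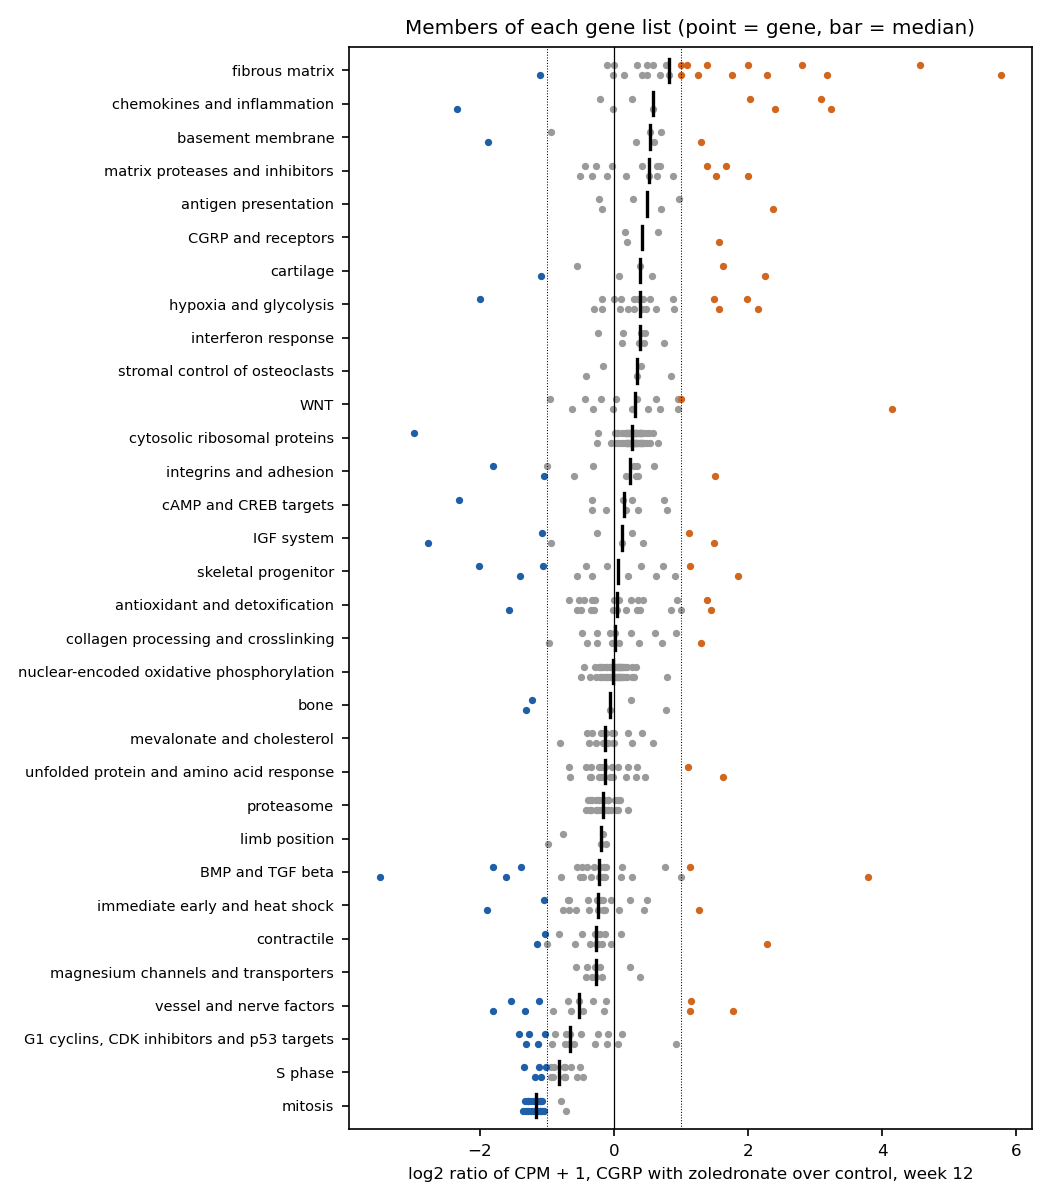
Log2 ratio of CPM plus 1, CGRP over control at week 12, for the measured members of each gene list (1 point per gene, black bar at the median), ordered by median. Orange and blue points lie at least 2-fold higher or lower. Fibrous matrix has the highest median (0.82) and mitosis the lowest (-1.15).

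The receptor genes for CGRP were near the floor of detection. Calcrl had 0.165 CPM in control (95% Poisson interval 0.104 to 0.247, 23 UMIs) and 0.496 with CGRP (0.389 to 0.624, 73 UMIs). Ramp1, its partner in the CGRP receptor, had 0.122 and 0.0680 CPM from 17 and 10 UMIs, and these intervals overlapped. Calca, which encodes the peptide, was listed in neither library. Ramp2, the partner in an adrenomedullin receptor, had 54.5 and 61.5 CPM (0.17). Ramp3, partner in the other adrenomedullin receptor, was the member of the list that passed 2-fold, with 28.2 CPM in control, 29.1 with zoledronate, 85.8 with CGRP and 191 with Mg at week 12. At week 4 it had 14.5 in control, 17.7 with zoledronate, 59.6 with CGRP and 13.9 with Mg. The CGRP library was above control and zoledronate at both weeks (log2 ratios to control of 1.57 at week 12 and 1.96 at week 4), and Mg was above it at week 12 only.

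Of 10 measured cyclic AMP and CREB target genes, 0 were at least 2-fold higher (2.07% of all genes) and 1, Akap12, was lower (3.07%). The nuclear receptor Nr4a1 had 22.6 and 40.0 CPM (0.80) and the phosphodiesterase Pde4b 6.88 and 12.2 (0.75). At week 4 Nr4a1 had 5.41 and 24.7 CPM (2.01). The cyclic AMP element TGACGTCA was in 3 of 19 matched promoters of this list (15.8%) and in 1.83% of all. The 3 were Dusp1 (log2 ratio -0.33), Areg and Ppargc1a, so Akap12, Nr4a1 and Pde4b were not among them. The list is one of cyclic AMP and CREB targets, so this share says nothing about the 2 libraries. Of 21 immediate early and heat shock genes, Atf3 was higher (6.18 and 16.4 CPM, 1.27) and Cryab and the mRNA-decay factor Zfp36 were lower (Zfp36 38.1 and 17.9 CPM, -1.04), beside 2.07% and 3.07% of all genes. Zfp36 was not past 2-fold with TMM factors.

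Mevalonate and cholesterol genes, the pathway that zoledronate blocks, differed little. Of 21 measured members 0 passed 2-fold in either direction, beside 2.07% of all genes higher and 3.07% lower. The median of -0.13 was that of all genes. The enzyme bound by zoledronate, Fdps, had 368 and 365 CPM (-0.01), beside 276 with zoledronate alone at week 12. The sterol oxidase Msmo1 had the lowest ratio of the list (223 and 127 CPM, -0.81). The sterol element TCACNCCAC, where N is any base, was in 0 of 18 matched promoters and in 1.12% of all.

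None of 5 measured stromal regulators of osteoclasts passed 2-fold, a number near the shares of all genes (2.07% higher and 3.07% lower). Tnfrsf11b, the decoy receptor that blocks RANKL, had 37.9 and 69.2 CPM (0.85), and Csf1, a growth factor for osteoclast precursors, 94.0 and 84.2 (-0.16), beside 27.2 with zoledronate and 129 with Mg.

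Chemokine and inflammation genes had 4 of 9 measured members at least 2-fold higher (2.07% of all genes) and 1 lower (3.07%). Ccl2, which draws monocytes, had 51.8 CPM in control, 211 with zoledronate, 215 with CGRP and 829.8 with Mg at week 12, and 8.89, 20.9, 17.3 and 23.5 at week 4 in the same order. Control was the lowest library at each week. Ccl7, a related chemokine, had 42.6, 135, 229.7 and 688 CPM at week 12 and 3.33 to 9.34 at week 4. The alarmin Il33 had 12.2 CPM in control and 111 with CGRP (3.09), 20.4 with zoledronate and 82.7 with Mg while its receptor Il1rl1 was on the lower side. Cxcl14 had 0.351 and 11.7 CPM (3.23). The list of 10 macrophage markers summed to 11.1 CPM in control (3 listed) and 23.5 with CGRP (7 listed). Lyz2 was unlisted in control and at 7.03 CPM with CGRP, Tyrobp unlisted and at 2.15, Aif1 unlisted and at 0.156, and Ptprc unlisted and at 0.0680. Cd14 had 10.2 and 12.8 CPM, Cd68 0.544 and 0.972, and Csf1r 0.351 and 0.326. Their part in the chemokine values was not tested.

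None of 8 measured interferon response genes passed 2-fold, again near the shares of all genes, and the median was 0.38. This list did not include Ifitm3, an interferon-induced membrane protein, whose ratio was 1.86. Of 6 antigen presentation genes, RT1-A2 passed 2-fold (8.12 and 46.1 CPM, 2.37), while RT1-A1 had 22.9 and 38.0 (0.71). These class I genes are similar copies that also vary between animals of an outbred stock such as Sprague Dawley. Neither the split of reads between copies nor the animals' genotype was tested, so both values are uncertain. In the Mg library of week 12 RT1-A2 had 0.914 and RT1-A1 39.3 CPM, and in the zoledronate library the order was the opposite, 66.4 and 0.968. B2m, the shared light chain, was at 1173 and 1041 CPM (-0.17).

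Of 17 measured matrix proteases and inhibitors 4 were at least 2-fold higher (2.07% of all genes) and 0 lower (3.07%). Beside Serpine2 these were the gelatinase Mmp2 (157 and 503 CPM, 1.68) and the cathepsins Ctsl (655 and 1892, 1.53) and Ctsk (50.8 and 135, 1.39). The osteoclast marker list, which includes Ctsk, summed to 62.8 CPM in control and 153 with CGRP, with 5 and 7 of its 10 markers listed. Its defining members Dcstamp, Ocstamp and Calcr were listed in neither library.

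Growth factor systems had members on both sides. Of 16 measured WNT genes, Sfrp1, a secreted antagonist, had 0.573 CPM in control, 1.64 with zoledronate, 26.7 with CGRP and 32.6 with Mg at week 12, and at most 0.324 at week 4. Its ratio was 4.14, and Wnt4, at 6.51 and 14.0 CPM, was just past 2-fold, beside 2.07% of all genes higher. Of 25 BMP and TGF beta genes, 2 were higher (2.07% of all genes) and 4 lower (3.07%). Tgfbi, a matrix protein induced by TGF beta, had 4.96 and 81.7 CPM (3.80). Bmp4 had 19.9 CPM in control, 2.05 with zoledronate, 0.863 with CGRP and 0.0626 with Mg at week 12 (-3.49), but 11.4 in control and 41.5 with CGRP at week 4. Tgfb3 had 592 and 226 CPM (-1.39) and Bmp3 8.13 and 2.01 (-1.60), so that with Tgfb2 2 of the TGF beta ligands were lower.

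In the IGF system Igf1 had 161 and 353 CPM (1.13) and its binding protein Igfbp4 10.4 and 31.0 (1.49), while Igfbp2 had 14.8 and 1.31 (-2.77) and the receptor substrate Irs2 22.2 and 10.1 (-1.06, not past 2-fold with TMM factors). The CGRP library had the most Igf1 of the week 12 libraries, where zoledronate had 142 and Mg 113 CPM. Of 15 vessel and nerve factors 3 were higher (2.07% of all genes) and 4 lower (3.07%, and 3 with TMM factors). Vegfa, the main growth factor for vessels, had 214 and 156 CPM (-0.45). The guidance cue Slit3 was higher (31.6 and 111 CPM, 1.78), and Sema3d (32.1 and 8.56, -1.79), Fgf18 (23.4 and 7.45, -1.53), the enkephalin precursor Penk (86.5 and 34.0, -1.32) and the neurotrophin Bdnf (48.5 and 22.0, -1.11) were lower.

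Of 22 measured hypoxia and glycolysis genes 4 were at least 2-fold higher (2.07% of all genes) and 1 lower (3.07%), with a median of 0.39. With TMM factors 6 were higher. Hif1a, the oxygen-regulated transcription factor, had 59.7 CPM in control, 139 with zoledronate, 178 with CGRP and 230 with Mg at week 12 (1.56), and control was the lowest. Its targets differed in direction: the lactate exporter Slc16a3 had 6.22 and 31.0 CPM (2.15), Ndrg1 3.60 and 17.3 (1.99) and the mitophagy receptor Bnip3 99.0 and 281, against Car9 on the lower side. Of the 22, 18 had ratios above 0, beside 2327 of all 7236 genes. Glycolytic Gapdh (-0.29) and Eno1 (-0.18) were among the 4 members below 0, and were close to the median of all genes.

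Of 24 unfolded protein and amino acid response genes, 2 were at least 2-fold higher (2.07% of all genes) and 0 lower (3.07%). The higher ones were the mTOR inhibitor Ddit4 (13.5 and 44.0 CPM, 1.63) and Trib3 (36.8 and 80.4, 1.11). Antioxidant genes had 2 of 25 higher (2.07% of all genes), the secreted peroxidase Gpx3 (269 and 740.3 CPM, 1.46) and Mgst1 (3.62 and 11.1, 1.39). Nqo1 was lower (3.07% of all genes), and 4 of the 25 were higher with TMM factors. The glutathione synthesis genes Gclm (-0.67) and Gclc (-0.52), NRF2 targets as well, were below the median of all genes without passing 2-fold. None of 5 limb position genes passed (2.07% of all genes were higher and 3.07% lower). Pitx1, a hindlimb factor, had the lowest ratio (44.0 and 21.7 CPM, -0.99). None of 10 magnesium channels and transporters, 31 proteasome subunits or 71 nuclear-encoded oxidative phosphorylation genes passed, beside the same shares of all genes. Their medians were -0.27, -0.17 and -0.01. Of 80 cytosolic ribosomal proteins 76 had ratios above 0, beside 2327 of all 7236 genes. The summed level of the 80 was 224259 CPM in control and 268813 with CGRP. The one past 2-fold (3.07% of all genes were lower) was Rpl39l, a paralog of Rpl39 (83.6 and 9.72 CPM, -2.98).

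Shares of cells had the same order as the sums. Both come from the same UMIs and the genes were named for their ratios, so this is no separate support. Thinned to 5000 UMIs per cell, Dcn was detected in 1.03% of control cells (exact binomial 95% interval 0.816 to 1.28%) and 39.7% of CGRP cells (38.8 to 40.7%), or 2.28% and 56.9% without thinning. Tnn was in 6.39% and 82.1% of thinned cells (14.8% and 94.0% unthinned), Thbs2 in 36.3% and 91.0% (64.8% and 97.5%), and Wfdc18 in 2.64% and 24.7% (5.89% and 37.4%). On the lower side, Akap12 was in 86.7% and 41.3% of thinned cells (95.6% and 57.7%), Il1rl1 in 65.9% and 23.8% (86.8% and 38.7%) and Nqo1 in 95.4% and 70.6% (99.5% and 88.8%). Detecting cells also held different amounts: Akap12 had 9.13 UMIs per detecting control cell and 3.65 per CGRP cell, and Tnn 1.36 and 4.33. For Il33 the amount per detecting cell was close, 1.91 and 2.11, while its share was 3.83% and 29.0%. No class of cells that should lack these genes was at hand to give the share that free RNA alone would produce.

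**Figure D4:**
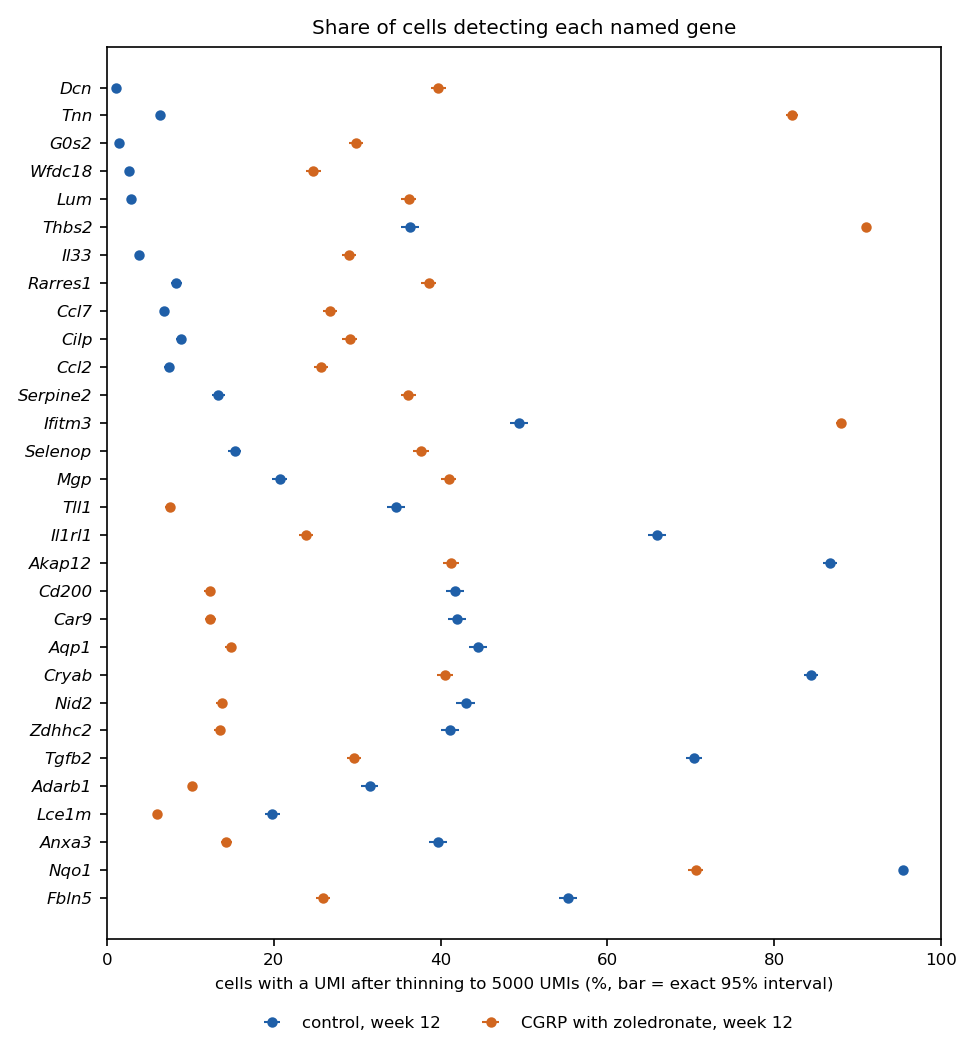
Share of cells with at least 1 UMI of each named gene after thinning to 5000 UMIs per cell (horizontal axis, percent), control in blue and CGRP in orange, with exact 95% intervals that cover counting error only. The genes run from Dcn (1.03% and 39.7%) to Fbln5 (55.3% and 25.9%). Intervals this narrow are also apart for genes with small ratios. Plod3, with a log2 ratio of 0.38, had 43.5 to 45.8% in control and 52.9 to 54.9% with CGRP. The named genes were picked for their ratios in the same UMIs, so the distance between their shares is no further support.

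The same contrast at week 4, from 2 other libraries, was smaller and often of opposite sign. At week 4, 49 of 7129 genes (0.687%) were at least 2-fold higher with CGRP and 65 (0.912%) at least 2-fold lower. Across 7001 genes measured at both weeks the ratios had a Pearson correlation of -0.49 and a Spearman correlation of -0.42, a description over genes, which are not independent. Of the 150 higher genes of week 12, 124 were measured at week 4, and 99 had the opposite and 25 the same sign there. Of the 222 lower genes, 196 were measured, with 154 of opposite and 42 of the same sign. The share of opposite signs over all 7001 genes was not computed. The median of the fibrous matrix list was -0.54 at week 4 and 0.82 at week 12, and that of the mitosis list 0.45 and -1.15. Il33, Ccl7 and Ccl2 were on the higher side at both weeks, at 0.97, 0.97 and 0.88 at week 4. The difference between the weeks was not tested.

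**Figure D5:**
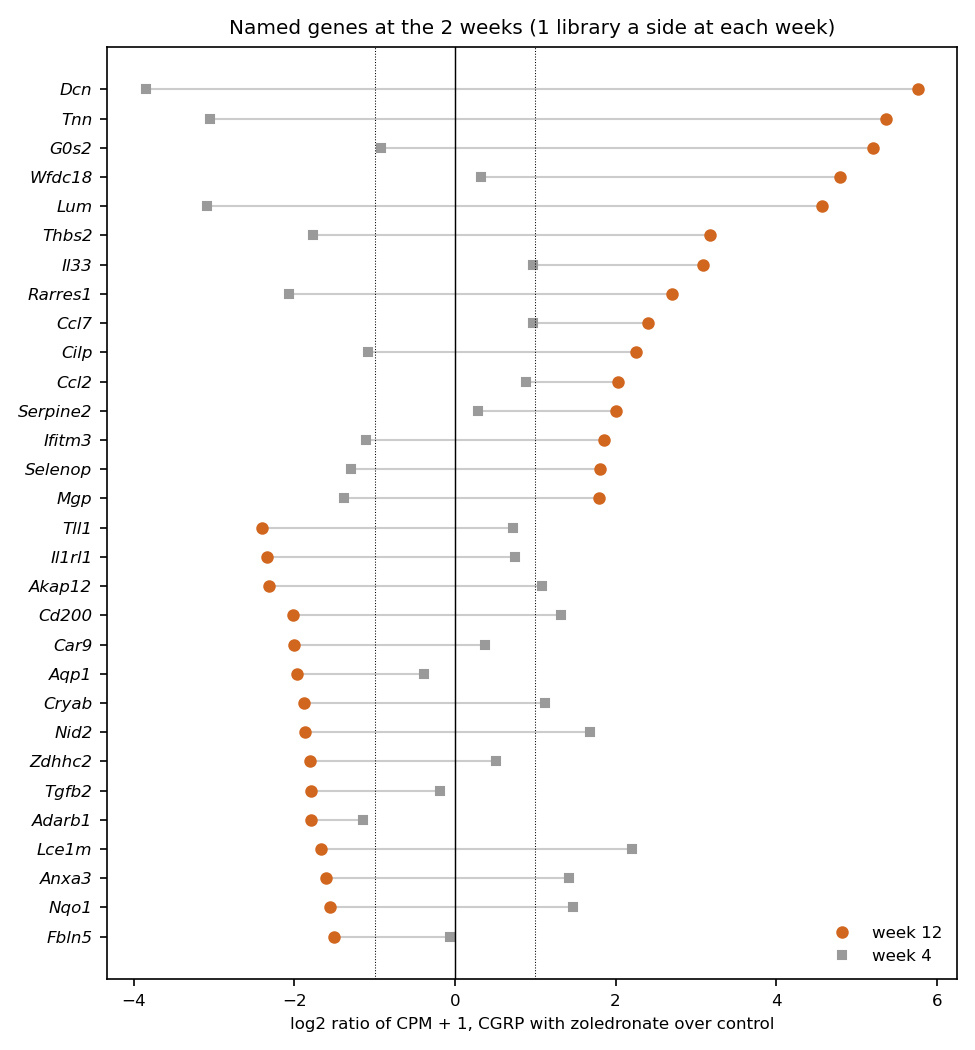
Log2 ratio of CPM plus 1, CGRP over control, for the 30 named genes at week 12 (orange circles) and week 4 (grey squares), joined by a line, with dotted lines at 2-fold. Of the 15 higher genes 10 are on the opposite side at week 4, and of the 15 lower genes 11.

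Marker lists of 15 cell types were summed to see what the libraries held. Fibroblast markers were listed for 9 of 10 in each library and summed to 24109 CPM in control and 38031 with CGRP, within the range of 25325 to 42365 in the other 6 libraries for CGRP and below it for control. Of the macrophage markers Adgre1, C1qa and C1qb were unlisted in both, and endothelial markers summed to 49.8 and 49.7, with Cdh5, Emcn and Cldn5 unlisted. T cell, B cell and neutrophil lists summed to at most 1.64 CPM in either library. Smooth muscle and pericyte markers summed to 13385 and 9999 CPM and Schwann cell markers to 15.7 and 65.0, with Sox10 and Erbb3 unlisted. The part of these differences in the gene results was not tested.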

How the data were processed

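Per the labels and the series' design text, single-cell libraries were made from collagenase-digested callus cells after 24 h in a dish, with 10x Chromium version 3 chemistry. The authors deposited tables of UMI counts per gene and cell, 1 per library. STAR and the build Rnor_6.0 are named in the submitters' processing notes. The sources used here do not state cell calling or filters. Each gene listed had UMIs in 5 cells or more, and 0 mitochondrial genes were listed.

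Barcodes with at least 5000 UMIs were kept, UMIs were summed per gene and library and scaled to CPM, and log2 ratios used a pseudocount of 1 CPM (Python 3.11.15, numpy 2.4.6, pandas 2.3.3, scipy 1.17.1). No doublet caller was run. With 1 library a side no test was made, and at least 2-fold is a description of size. The calculation was tested on simulated data. Genes of at least 5 CPM on average entered. Named were the 15 highest and 15 lowest ratios of at least 50 CPM with gene symbols, plus up to 4 members per direction and the defining members of 32 gene lists. The members and lists were chosen with earlier results of these data known. Poisson and Clopper-Pearson 95% intervals cover counting error only. Alternatives covered UMI limits, thinning, scaling (edgeR 4.0.16 and DESeq2 1.42.0 factors), pseudocounts, filters and composition. Promoters came from RefSeq (GRCr8), with genes matched by symbol.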

Additional observations from a re-analysis of the deposited data

Results flagged for a closer look

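For 16 of the 30 named genes the log2 ratio of CGRP over control was on opposite sides of 0 at week 12 and week 4, by at least 2-fold each time. The difference was not tested, since each week has 1 library a side. On the higher side of week 12 these were Dcn (5.77 at week 12, -3.85 at week 4), Tnn (5.37 and -3.05), Lum (4.57 and -3.09), Thbs2 (3.17 and -1.77), Rarres1 (2.70 and -2.06), Cilp (2.25 and -1.08), Ifitm3 (1.86 and -1.11), Selenop (1.81 and -1.29) and Mgp (1.80 and -1.38). The lower genes of week 12 were Akap12 (-2.31 and 1.09), Cd200 (-2.01 and 1.32), Cryab (-1.88 and 1.12), Nid2 (-1.87 and 1.68), Lce1m (-1.67 and 2.20), Anxa3 (-1.60 and 1.42) and Nqo1 (-1.56 and 1.47). Matrix glycoproteins and proteoglycans lead the first group. The median of all genes was -0.13 at week 12 and -0.01 at week 4.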

How the results depend on the processing

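All 390 values of the 30 named genes under 13 alternatives kept their side and remained past 2-fold. This was largely fixed in advance, since the genes were named for the most extreme ratios of the same UMIs. The limits of 1 and 50 CPM left their ratios unchanged. The largest move was that of Dcn, to 4.65 with a pseudocount of 5, under which G0s2 was at 4.40 and Lum at 3.95. The number of genes at least 2-fold lower was 127 with a pseudocount of 5 and 60 with a mean of at least 50 CPM. The number at least 2-fold higher was 238 with a mean of at least 1 CPM and 52 with at least 50 CPM. Filters change how many genes enter (9072 and 2445). The mitosis members at least 2-fold lower were 13 with a pseudocount of 5. With at least 50 CPM they were 8, which were all the members that entered. With dividing cells left out they were 6, but those cells were picked by the same mitosis genes. List medians near 0 changed sign: the mevalonate and cholesterol median to 0.0029 and the unfolded protein and amino acid response median to 0.0021 with TMM factors, cyclic AMP targets to -0.22 and antigen presentation to -0.20 with at least 50 CPM, and antioxidant genes to -0.04 with dividing cells left out. For these sign changes the cause was not tested. Of 832 list counts, 726 were within 1.5 times the reported count. No paired analysis was possible because each group has 1 library at each week. Animals per library are not known, and no value covers the spread between animals or dishes.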

Other observations

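Genes below the 50 CPM limit for naming, chosen here after their values were seen, included some of the widest ratios. Tnmd, a marker of tendon and ligament cells, had 2.12 CPM in control and 36.7 with CGRP, the lipopolysaccharide-binding protein Lbp 1.69 and 46.0, Ndufa4l2, a hypoxia-induced mitochondrial protein, 1.07 and 29.4, and S100b 5.17 and 53.8. On the lower side were the glutamate receptor subunit Gria2 (14.2 and 0.136 CPM), the nuclear receptor Rorb (16.7 and 0.680), the taurine transporter Slc6a6 (64.8 and 7.27) and the transcription factor Dmrta2 (14.9 and 1.63).

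Some of the higher genes were found in the same cells, counted after thinning to 5000 UMIs, with pairs chosen after values were seen. Dcn and Lum were detected together in 21.9% of CGRP cells and 0.180% of control cells. In the CGRP library Lum was in 55.3% of cells with Dcn and 23.6% of cells without it. In control it was in 17.5% of the 80 cells with Dcn and 2.73% of those without. Tnn differed less, in 85.6% of CGRP cells with Dcn and 79.9% of those without. Ccl2 and Ccl7 were together in 15.1% of CGRP and 2.44% of control cells, and Ccl7 was in 58.9% of CGRP cells with Ccl2 and 15.7% of those without. The same shares in control were 33.1% and 4.78%, so cells with both genes were not particular to the CGRP library. Wfdc18 was in 31.1% of CGRP cells with Il33 and 22.2% of those without, and Dcn was in 49.3% of cells with Wfdc18 and 36.6% of those without. Il1rl1 and Akap12 were together in 59.4% of control and 12.7% of CGRP cells. These shares describe cells of 1 library each.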
